A study of Mus musculus with 82 samples.

Results

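Hsd11b1, Akr1c14 and Cyp17a1 are 3 genes of steroid metabolism, chosen by name and each measured by 1 probe. They are 3 of 21915 features on the array and of the 3439 features that carry a gene name. The genes lie on mouse chromosomes 1, 13 and 19, in that order. Their log2 ratios are described across BXD mouse strains, between the sexes, in adult liver against embryo RNA, and in liver of the parental strains against each other.

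Steroid hormones are made in the adrenal gland and the gonads and are activated, inactivated and cleared to a large extent in the liver. Hsd11b1 encodes the hydroxysteroid dehydrogenase that regenerates active glucocorticoid, corticosterone in mice, from its inactive keto form, and hepatocytes are among the cells best known for it. Akr1c14 encodes an aldo-keto reductase that reduces keto steroids such as dihydrotestosterone. Cyp17a1 encodes the cytochrome that turns progestogens into androgen precursors, and is best known from the gonads.

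Liver RNA was hybridised on 82 two-colour arrays. On 72 of them liver of BXD recombinant inbred strains, which carry mosaics of the C57BL/6J (B6) and DBA/2J (D2) genomes, was compared with an RNA mix from day 17.5 embryos of B6 (the embryo mix), with 40 arrays of females and 32 of males from 17 strains. Another 2 arrays set B6 male liver against the same mix, 6 arrays set B6 liver directly against D2 liver (3 of females and 3 of males), and 2 arrays set B6 against D2 RNA labelled as enriched, 1 per sex. The labels name no engineered allele and no treatment, and per the series description the mice were 10 to 20 weeks old and unfasted. The series description speaks of males, of 18 BXD strains and of 3 mice for each, while the labels hold both sexes and 17 strains. Neither the pooling of mice nor what was enriched is stated in the sources used here. P-values therefore measure the spread between strains or between the RNA samples as labelled.

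A value is the log2 of 1 RNA over the other on the same array, and no signal intensity was analysed here, so it is a ratio to the embryo mix or to D2 and not a level in liver. Direction was not settled by the dyes, since both channels carry the same dye label. Read as channel 2 over channel 1, the median of 7 measured adult hepatocyte genes lay above that of 10 measured embryonic genes on 74 of 74 arrays against the mix, so this direction is likely and was used throughout. Adult hepatocyte genes were higher in liver for 6 of 7, with Ahsg at 0.16 the exception, and 6 of 10 embryonic genes were lower. Among markers of adrenal and gonad 0 of 6, of kidney 0 of 4 and of Kupffer cells 0 of 4 passed the test and size threshold in either direction. In whole liver, fewer cells of a type and less RNA per cell cannot be told apart.

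Promoter sequence, the 250 bases before the transcription start in RefSeq (GRCm38.p6), was at hand for Hsd11b1 and Akr1c14 and is printed for both. None was at hand for Cyp17a1. Hsd11b1 and Akr1c14 also had the largest ratios of the 3 genes against the mix. The stretches are chr1:193242361-193242610 on the minus strand for Hsd11b1 and chr13:4059341-4059590 on the plus strand for Akr1c14, and capitals mark CCAAT or its reverse complement.
Hsd11b1: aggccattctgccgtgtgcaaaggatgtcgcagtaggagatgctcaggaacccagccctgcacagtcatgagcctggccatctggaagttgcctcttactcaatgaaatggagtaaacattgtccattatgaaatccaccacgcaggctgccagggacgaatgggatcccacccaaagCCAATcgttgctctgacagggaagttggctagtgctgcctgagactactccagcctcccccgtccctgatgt
Akr1c14: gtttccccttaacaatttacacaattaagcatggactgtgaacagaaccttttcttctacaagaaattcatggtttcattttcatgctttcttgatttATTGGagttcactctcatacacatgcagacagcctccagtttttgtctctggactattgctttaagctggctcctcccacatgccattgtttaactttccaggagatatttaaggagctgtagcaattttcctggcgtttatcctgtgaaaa
The CCAAT letters start 72 bases before the start of Hsd11b1, and their reverse complement starts 152 bases before that of Akr1c14. GC content was 54.4% for Hsd11b1 and 38.8% for Akr1c14. Searched on both strands, CCAAT is held by 33.8% of all 32851 promoter windows of this length. The letters TATAAA (12.4% of windows), TTGCNNAA (a C/EBP site, 9.56%), TGTTCT (a glucocorticoid receptor half-site, 16.1%) and GTTAAT (an HNF1 half-site, 6.43%) were found in neither sequence.

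In adult liver all 3 genes were higher than in the embryo mix, in every strain and on every BXD array. Over 72 arrays the log2 ratio of Hsd11b1 ran from 3.50 over a median of 4.36 to 5.62. Akr1c14 ran from 2.63 over 3.97 to 5.70, and Cyp17a1 from 0.38 over 1.25 to 2.81. No array of any strain or orientation lay at or below 0.

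Averaged over both orientations and sexes, Hsd11b1 was 21.2-fold higher in liver than in the mix (log2 4.41 ± 0.17 SD, n = 13 strains, adjusted p = 5.87e-20, limma). Its strain means lay between 4.14 in BXD11 and 4.71 in BXD5, and it ranked 22 among all features and 10 among named ones by ratio. Akr1c14 was 16.2-fold higher (4.01 ± 0.37, adjusted p = 1.08e-15, limma), from 3.40 in BXD32 to 4.50 in BXD28, and ranked 20 among named features. Cyp17a1 was 2.50-fold higher (1.32 ± 0.29, adjusted p = 7.71e-11, limma), from 0.95 in BXD16 to 1.78 in BXD5 and BXD18, and ranked 205 among named features. Each gene was higher in 13 of 13 strains. Of all features 4.69% were called higher and 9.17% lower at an adjusted p under 0.05 and a log2 ratio of at least 1 in size, and the median feature stood at 0.071. The mix is 1 common RNA, so its own spread is outside this test.

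Liver of B6 males on the pair of arrays against the mix gave mean ratios in the range of the BXD males. Hsd11b1 read 3.70 and 3.91 in B6 males, against a mean of 4.14 ± 0.27 (SD) in males of 13 BXD strains, of which 2 lay below the B6 mean. Akr1c14 read 3.58 and 3.93 in B6 males, against 3.77 ± 0.43 in BXD males. Cyp17a1 read 0.57 and 1.02 in B6 males, against 1.08 ± 0.33 in BXD males. With 1 pair of arrays no test was made.

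**Figure D1:**
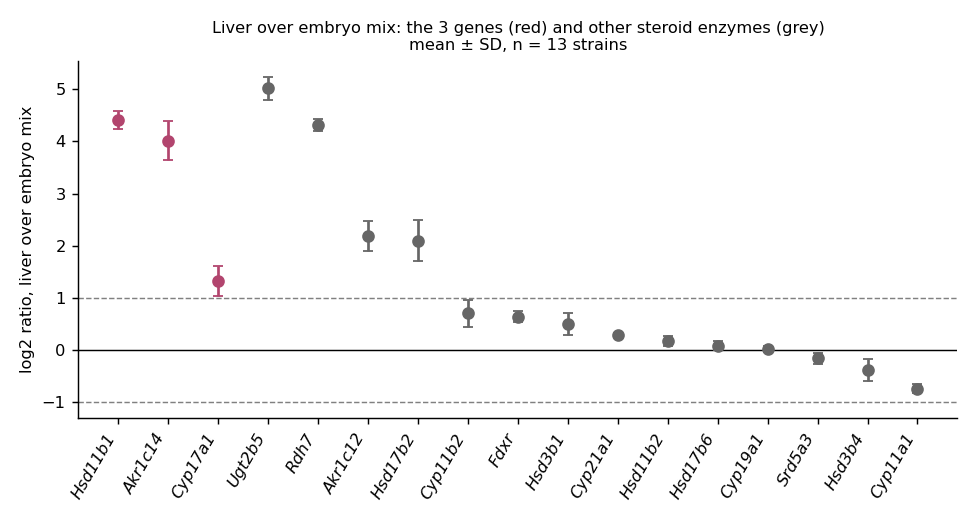
Log2 ratio of adult liver over the embryo mix (vertical axis) for Hsd11b1, Akr1c14 and Cyp17a1 in red and 14 other steroid enzymes in grey, as mean ± SD over 13 strains; dashed lines mark the size threshold of 1. Hsd11b1 at 4.41 and Akr1c14 at 4.01 stand with Ugt2b5 and Rdh7, and Cyp17a1 at 1.32 stands nearer the threshold.

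Of 14 other measured steroid enzymes 4 were higher in liver and 0 lower. These were Ugt2b5, which attaches glucuronic acid to steroids (log2 5.02), Rdh7, a retinol and steroid dehydrogenase (4.31), Akr1c12, an aldo-keto reductase (2.18), and Hsd17b2, which oxidises estradiol and testosterone (2.10). The list's median was 0.39. Hsd11b2, which inactivates the glucocorticoid that Hsd11b1 regenerates and is best known from the kidney, stood at 0.17 ± 0.090 and missed the size threshold. The enzymes of adrenal steroid synthesis lay between -0.74 (Cyp11a1, which cleaves the side chain of cholesterol) and 0.70 (Cyp11b2, which makes aldosterone), and each missed the size threshold.

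Genes that carry or answer to glucocorticoids were mostly outside the array's named set. Of 2 measured receptors and carriers, Serpina6, the corticosteroid-binding globulin that liver secretes, was higher (1.73 ± 0.32), and Pgr, the progesterone receptor, read 0.51. Of 6 measured glucocorticoid response genes only Pck1, a gluconeogenic enzyme, was called (3.79). Of 6 measured regulators 3 were higher, namely the bile acid receptor Nr1h4 (1.90), Cebpb (1.46) and the fatty acid receptor Ppara (1.38).

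Females had higher ratios than males for all 3 genes when all 17 strains entered. For Hsd11b1 the females ran from 4.17 in BXD16 over a median of 4.52 to 5.16 in BXD5, against 3.55 in BXD18, 4.21 and 4.61 in BXD14 in males. For Akr1c14 the females ran from 3.02 in BXD8 over 4.05 to 5.26 in BXD28, against 2.63 in BXD18, 3.83 and 4.28 in BXD14 in males. For Cyp17a1 the females ran from 0.89 in BXD19 over 1.53 to 2.44 in BXD5, against 0.49 in BXD8, 1.02 and 1.53 in BXD18 in males. The sexes overlapped for each gene.

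Sex-linked genes served as a check of the sex labels. Over 17 strains the X-linked Ddx3x and Eif2s3x were higher in females in 17 of 17, while the Y-linked Eif2s3y was higher in females in 2 and Uty in 3. In BXD8, BXD9, BXD14 and BXD27, the strains with 1 orientation, Ddx3x and Eif2s3x were higher in females in 4 of 4. Eif2s3y averaged -0.25 in females and -0.16 in males there, so it did not part the sexes, and Uty averaged 0.20 in females and 1.07 in males, with 1 strain the other way.

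The difference was 0.45 for Hsd11b1 (females 4.63, males 4.18; higher in females in 14 of 17 strains; adjusted p = 0.00627, limma with strain as a block). It was 0.44 for Akr1c14 (females 4.14, males 3.71; 12 of 17 strains; adjusted p = 0.0422, limma). It was 0.51 for Cyp17a1 (females 1.55, males 1.04; 15 of 17 strains; adjusted p = 0.000979, limma), or 1.43-fold. Of all features 16.5% were called higher and 17.2% lower in females, so a call in this comparison was common.

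**Figure D2:**
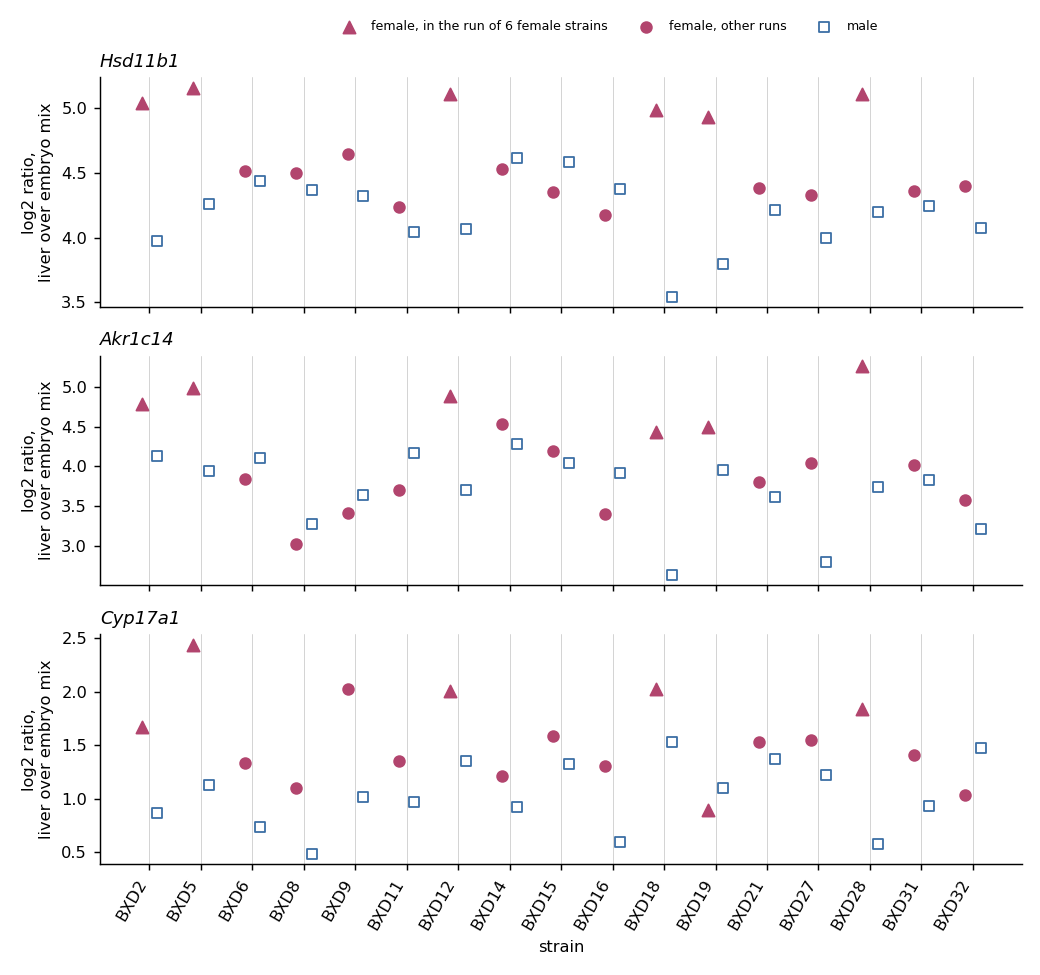
Log2 ratio of liver over the embryo mix (vertical axis) in each of 17 BXD strains (horizontal axis), 1 panel per gene. Filled symbols are females, triangles those in the run of 6 strains described in the text, and open squares are males. Triangles of Hsd11b1 lie at 4.94 to 5.16.

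A set of 12 arrays stood apart in this comparison. They were deposited one after another, hold females of BXD2, BXD5, BXD12, BXD18, BXD19 and BXD28 in both orientations and no male, and are called a run here, although no label names a batch. Hsd11b1 read 4.94 to 5.16 in these 6 females, against 4.17 to 4.64 in the other 11, and these do not overlap. How many of all features set these females apart in this way was not counted. Akr1c14 read 4.43 to 5.26 against 3.02 to 4.54, which overlap, and Cyp17a1 read 0.89 to 2.44 against 1.04 to 2.03, which overlap. Males of the same 6 strains, on other arrays, had Hsd11b1 at 3.55 to 4.26.

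In those 6 strains the female excess was 1.09 for Hsd11b1, 1.13 for Akr1c14 and 0.72 for Cyp17a1. In the other 11 strains it was 0.10 for Hsd11b1 (95% interval -0.035 to 0.24; 8 of 11 strains; adjusted p = 0.262, limma) and 0.059 for Akr1c14 (-0.24 to 0.35; 6 of 11; adjusted p = 0.798, limma). Cyp17a1 kept a female excess of 0.40 there (0.17 to 0.62; 10 of 11; adjusted p = 0.016, limma), with BXD32, at -0.44, the exception. Of all features 23.7% were called in these 11 strains.

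**Figure D3:**
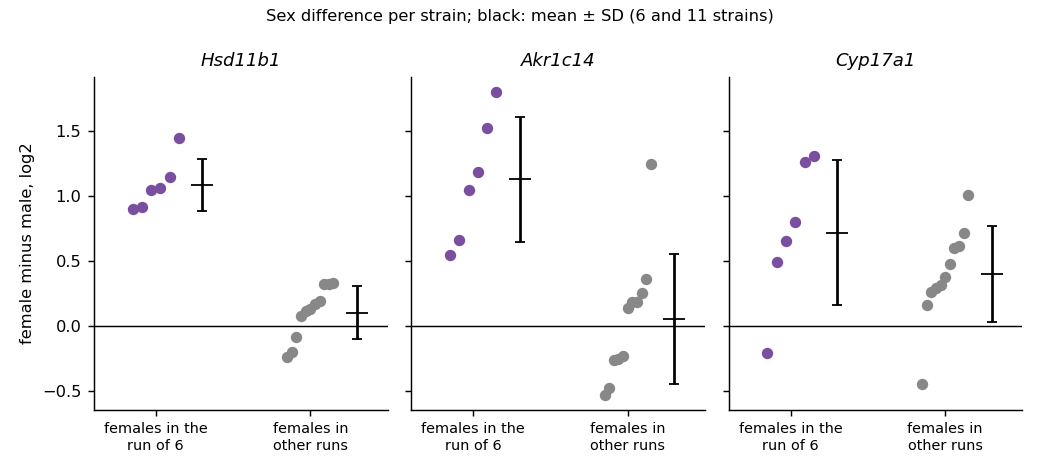
Female minus male log2 ratio per strain (vertical axis), with the 6 strains whose females lie in the run of 12 arrays left of the other 11 strains; black marks are mean ± SD. For Hsd11b1 the strains in the run lie at 0.90 to 1.45 and the others at -0.23 to 0.33. For Cyp17a1 both sets overlap.

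With the run as a term in the model (40 values, 1 per strain, sex and replicate number), 21.9% of features were called. Hsd11b1 then stood at 0.16 (-0.0016 to 0.32; adjusted p = 0.144, limma), Akr1c14 at 0.16 (-0.21 to 0.52; adjusted p = 0.551, limma) and Cyp17a1 at 0.28 (-0.053 to 0.61; adjusted p = 0.217, limma). In the 5 runs that hold both sexes, the female mean exceeded the male mean by 0.12 to 0.62 for Hsd11b1 (5 of 5 runs). The same difference was -0.076 to 1.25 for Akr1c14 (4 of 5) and 0.051 to 0.64 for Cyp17a1 (5 of 5). These means are not paired by strain. Only the run of BXD8, BXD9 and BXD14 and that of BXD27 held both sexes of the same strains. There Hsd11b1 differed by 0.12 and 0.33, Akr1c14 by -0.076 and 1.25, and Cyp17a1 by 0.64 and 0.32. The 0.62 of Hsd11b1 set females of other strains against males of BXD18 and BXD19. The run's 12 arrays had a median hepatocyte ratio of 3.92, against 3.91 on the other 60, and a median embryonic ratio of -2.92 against -2.90. Single genes did differ by strain set. In the run's 6 strains, female minus male was 0.66 for Otc, 0.38 for Agxt, -0.29 for Pck1 and -0.30 for Ahsg. In the other 11 strains it was -0.029, 0.078, 0.034 and -0.098, in that order. Among steroid enzymes, Ugt2b5 stood at 0.74 and -0.33 and Akr1c12 at 0.81 and -0.27 in these sets. Hsd3b1 was lower in females in both (-0.54 and -0.59). The spread over probes was 0.96 (median SD) in the run and 0.91 outside it. Whether the run or the strains in it account for the difference was not tested.

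Other genes of the pathway did not share one direction between the sexes. Of 14 steroid enzymes 4 were lower and 0 higher in females. Of these Hsd3b1, Cyp11b2 and Fdxr were also called with the run as a term. Of all features 17.2% were called lower and 16.5% higher, and 21.9% in either direction with the run as a term. Hsd3b1, which makes progesterone, averaged 0.22 in females and 0.79 in males (-0.57, lower in females in 17 of 17 strains). Serpina6 averaged 2.02 in females and 1.47 in males (0.55, adjusted p = 0.000438, limma; 16 of 17 strains), and 0.39 with the run as a term (adjusted p = 0.0957, limma). Nr1h4 was higher in females (0.34) and Stat5a, a signal carrier of growth hormone, lower (-0.32), and both were also called with the run as a term. Ppara stood at -0.20 and was not called. With the run as a term it stood at 0.68 and was called (adjusted p = 0.0233, limma). No glucocorticoid response gene was called of 6. Markers of Kupffer cells (2 of 4 higher, 0 lower), of stellate cells and fibroblasts (2 of 3 higher, 0 lower), of endothelium (1 of 4 higher, 2 lower) and of hepatocytes (1 of 7 higher, 0 lower) were called in females. With the run as a term these were 1 of 4, 0 of 3, 1 of 4 higher with 1 lower, and 0 of 7. The shares of all features given above apply to these counts too, and no list was tested against them. The part of these cell types in the result was not tested.

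No difference between strains passed the test for any of the 3 genes. Over 13 strains the highest over the lowest strain mean was 1.48-fold for Hsd11b1, 2.15-fold for Akr1c14 and 1.78-fold for Cyp17a1. The SD between strain means was 0.17, 0.37 and 0.29 in that order. The residual SD of single values was 0.40, 0.52 and 0.35. A strain mean averages a female and a male value, so these SDs are not on the same scale. The moderated F was 0.46, 1.24 and 1.59. The adjusted p was 0.948 for Hsd11b1, 0.640 for Akr1c14 and 0.541 for Cyp17a1 (limma, moderated F on 26 values), where 1.2% of features were called. When replicate numbers were kept apart (32 values), the run as a term left 735 features called (3.35%), against 1115 without that term. The adjusted p on those values was 0.323, 0.372 and 0.148 with the run term and 0.808, 0.343 and 0.316 without it, in the same order (limma). Each strain and sex is 1 value, so a difference confined to 1 sex counts here as residual.

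BXD18 had the lowest male ratio of the 13 strains for Hsd11b1 (3.55) and Akr1c14 (2.63), and the highest for Cyp17a1 (1.53). After each sex's mean was removed, Akr1c14 and Hsd11b1 correlated at 0.81 over 26 values and at 0.59 over the 13 males, which fell to 0.15 without BXD18. Akr1c14 and Cyp17a1 correlated at 0.21 over 26 values and at -0.61 over males, or -0.50 without BXD18. Cyp17a1 and Hsd11b1 correlated at 0.26 and -0.38. These values share arrays and, among females, the run, so they are descriptions.

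Among the genes with the ratio most like Hsd11b1 across those 26 values were Rida (r 0.87), Ugt2b5 (0.86), Atp5j2 (0.85) and Lect2 (0.83). For Akr1c14 they were Otc, a urea cycle enzyme (0.88), Ugt2b5 (0.86), C1d (0.85), Ndufa4 (0.85) and Vps29 (0.84). For Cyp17a1 they were Ctps2 (0.81), Kcnj3 (0.74), Prss39 (0.71), Zfp354b (0.71) and Tecta (0.70). Over males alone the values were 0.71 for Rida, 0.73 for Otc and 0.86 for Ctps2. Ugt2b5 was on both of the first lists.

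Akr1c14 was higher in B6 than in D2 liver on all 6 plain arrays. In females the log2 ratio of B6 over D2 was 1.15, 1.05 and 0.95, and in males 1.47, 1.39 and 1.35. The first value of each sex had B6 in channel 1 and the others had it in channel 2, so orientation did not turn the sign. Females lay below males on these arrays, at 3 arrays each from 2 replicate numbers. Of these, 2 arrays of each sex were both orientations of replicate 1. The fitted sex difference of Akr1c14, given below, was not called.

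Hsd11b1 was lower in B6, at -0.82, -0.49 and -0.52 in females and -0.16, -0.23 and -0.32 in males. Cyp17a1 was lower in B6 too, at -0.83, -0.76 and -1.28 in females and -0.29, -0.14 and -0.071 in males. For both genes the females lay below the males on these arrays too. How many of all features part the sexes this way was not counted, and the fitted sex difference is given below.

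Over 4 values, 1 per sex and replicate number, Akr1c14 averaged 1.21 (2.31-fold; 95% interval 1.02 to 1.40), and its adjusted p of 0.0528 (limma) missed the threshold. Hsd11b1 averaged -0.42 (-0.62 to -0.23; adjusted p = 0.194, limma) and Cyp17a1 averaged -0.59 (-0.89 to -0.29; adjusted p = 0.229, limma). Only 13 features, 0.0593%, were called, while 3058 had an unadjusted p under 0.05. Without the female sample of replicate 1, Akr1c14 at 1.17 passed (adjusted p = 0.0415, limma), while leaving out any of the other 3 samples gave adjusted p of 0.163 to 0.743 (limma). Over all alternatives its adjusted p ran from 0.000995 to 0.743 (limma). With the 6 arrays as separate values and a dye term, which counts both orientations of a sample as 2 values, the adjusted p was 0.000995 for Akr1c14, 0.0382 for Hsd11b1 and 0.0496 for Cyp17a1 (limma).

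The difference between the sexes in B6 over D2, female minus male, was -0.33 for Hsd11b1, -0.37 for Akr1c14 and -0.89 for Cyp17a1, with adjusted p of 0.661, 0.657 and 0.605 (limma, 4 values). Here 0% of features were called, 1673 had an unadjusted p under 0.05, and limma's trend and robust setting called 1. After turning, both orientations of replicate 1 correlated at 0.13 in females and -0.019 in males over 21936 probes. The component shared by arrays of 1 orientation correlated at 0.68 (females) and 0.76 (males) with that of the BXD arrays, which gives the direction used.

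On the enriched arrays Akr1c14 read -0.13 in females and -0.26 in males, so the B6 excess of the plain arrays was not there. Hsd11b1 read -0.35 in females, above the 3 plain female arrays, and -0.32 in males, within the range of the plain male arrays. Cyp17a1 read 0.69 in females and -0.0090 in males, and both values lie above every plain array, of which the highest read -0.071. Each sex has 1 enriched array with B6 in channel 2, so these values have no replicate and no test, and what differs from the plain RNA is not given.

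**Figure D4:**
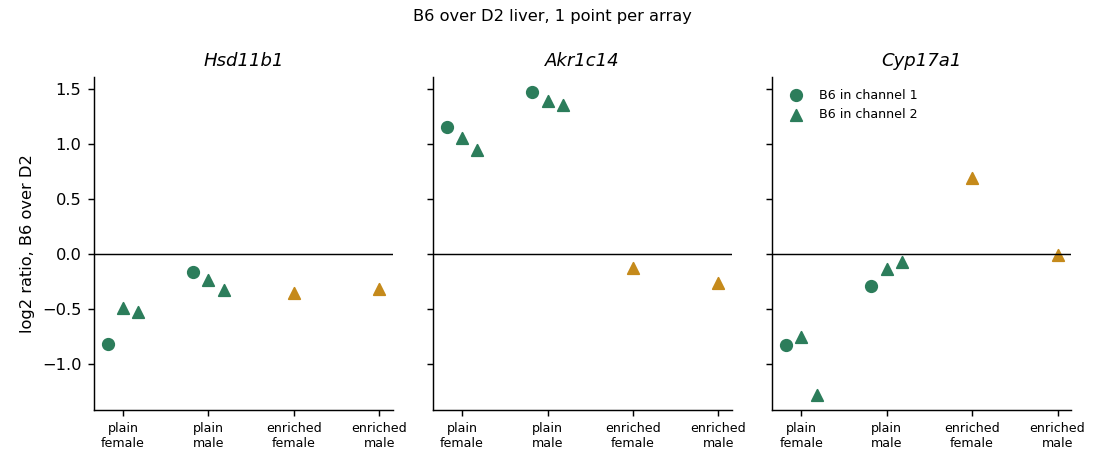
Log2 ratio of B6 over D2 liver (vertical axis), 1 point per array, for plain and enriched arrays of females and males (horizontal axis); circles have B6 in channel 1 and triangles in channel 2. Akr1c14 lies at 0.95 to 1.47 on 6 plain arrays and at -0.13 and -0.26 on the enriched arrays.

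Among other steroid genes Serpina6 read -1.30 in B6 over D2 (adjusted p = 0.112, limma), and 0 of 14 steroid enzymes were called. Akr1c12 and Akr1e1, aldo-keto reductases that lie within 15 genes of Akr1c14, read 0.11 and 0.0035. Akr1c genes are related copies of one another, and how far the Akr1c14 probe tells them apart was not analysed here, so its values are uncertain to that extent.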

How the data were processed

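Ratios of liver RNA from BXD, B6 and D2 mice came from 82 arrays with 21936 probes each. Each probe has 1 deposited log ratio per array, read here as log10 because 94 deposited values lie exactly at 2 or -2, a 100-fold bound; the base, software and normalization used by the authors are not given in the labels. Values were multiplied to log2, and arrays with liver or B6 in channel 1 were multiplied by -1. Platform symbols named 3290 probes, and a RefSeq table (GRCm38.p6, names and gene order only) another 170. Probes of a symbol were averaged, which left 21915 features.

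Values were averaged over arrays of 1 orientation, then over orientations, for each strain and sex; 13 of 17 strains had both orientations, and BXD8, BXD9, BXD14 and BXD27 had liver in channel 1 only. One array of BXD11 females titled a dye swap was treated by its channels. Linear models were fitted with lmFit and eBayes of limma (3.58.1, R 4.3.3) over all features, with Benjamini-Hochberg adjustment at 0.05 and, for liver against the mix, a log2 size of at least 1. Liver used 13 strain means, sex 34 values with strain as a block, strain 26 values, and B6 against D2 4 values. The code was tested on simulated data. Precision is limited by the number of arrays.

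The members and lists were chosen with earlier results of these data known. Named genes are the 3 genes, members of the lists, the 5 most alike by correlation, and named genes within 15 genes on either side. A result that met these rules is not reported here. Genes singled out as extremes were chosen after their values were seen.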

Additional observations from a re-analysis of the deposited data

Results flagged for a closer look

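Of 27 sets of 4 to 6 values tested over the 3 genes, 15 of them arrays of 1 strain and sex, 3 held a value farther from its nearest neighbour than Dixon's 95% limit allows, and chance alone marks about 1 in 20. All 3 were among those 15. Hsd11b1 read 4.80 on 1 array of BXD31 females, above the other 4. On an array of BXD6 males Hsd11b1 read 4.56, above the other 3. Akr1c14 read 3.22 on 1 array of BXD31 females, below the other 4. None of these arrays was left out.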

How the results depend on the processing

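Liver over the embryo mix kept its direction and call for all 3 genes under 27 alternatives (Hsd11b1 4.14 to 4.68, Akr1c14 3.75 to 4.26, Cyp17a1 1.08 to 1.57). No log2 estimate of the 3 genes changed sign in any comparison. The strain test has no direction and could not reverse. The alternative that kept probes apart could not move the estimates of these genes, since each has 1 probe. The sex difference was no longer called as follows, and the cause was not tested: with the run as a term (Hsd11b1 0.16, Akr1c14 0.16, Cyp17a1 0.28), without the 6 strains with females in the run (Hsd11b1 0.10, Akr1c14 0.059), on liver in channel 1 only (Hsd11b1 0.22, Akr1c14 0.29), in the 4 strains with 1 orientation (Hsd11b1 0.18, Akr1c14 0.25, Cyp17a1 0.56, with fewer samples), and for Akr1c14 with quantile normalization (0.26) or replicate 1 only (0.43). It was larger, and called, with scaled arrays (Hsd11b1 1.12, Akr1c14 0.95, Cyp17a1 0.71) and on liver in channel 2 only (Hsd11b1 0.83, Akr1c14 0.68). Channel 2 only held the 13 strains with both orientations and channel 1 only all 17, so these 2 settings differ in strains too. With both orientations the 13 strains gave 0.54 for Hsd11b1 and 0.49 for Akr1c14. The 40 values without the run term gave 0.41, 0.40 and 0.48 for the 3 genes, each called. Leaving out 1 strain, Akr1c14 ran from 0.35 to 0.50 and lost its call without BXD2, BXD5, BXD12, BXD14, BXD18, BXD19, BXD21, BXD27, BXD28 or BXD32 in turn. Calls by sex, 7381 in all, were 4789 with the run as a term and 0 in the 4 strains. Strain calls, 262 in all, were 5589 over all 17 strains. That set adds the 4 strains with liver in channel 1 only, so strain and orientation cannot be told apart in it. Strain calls were 164 and 101 on channel 1 and channel 2 only, and 735 with the run as a term and 1115 without it on the same 32 values. They were 139 to 278 leaving out 1 strain, the lowest without BXD15. B6 over D2 calls, 13 in all, were 2 with scaled arrays, 54 with quantile normalization, 0 with trend and robust settings, 648 with a dye term, 823 with B6 in channel 2 only, 397 with the enriched arrays added and 0 to 419 leaving out 1 sample. The replicate block gave 2; it changed no call of the 3 genes, and the numbers are not known to pair samples. Akr1c14 was called with the dye term (1.25), on channel 2 only (1.19) and without female replicate 1 (range 1.17 to 1.25), Hsd11b1 with the dye term (-0.44) and the enriched arrays (-0.40), and Cyp17a1 with the dye term (-0.56). With the enriched arrays added, Akr1c14 was 0.74 and Cyp17a1 -0.28, neither called. The sex term of B6 over D2 called 1 feature with trend and robust settings. The runs, the strain sets by run and the extra BXD11 array were examined as alternatives chosen after seeing the data.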

Other observations

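Among the 15 genes on either side of each gene, those with a name on the array included other genes with marked ratios. G0s2, an inhibitor of fat breakdown next to Hsd11b1, was among the features called between strains (adjusted p = 0.032, limma), with a strain SD of 1.07 in liver over the mix, against 0.17 for Hsd11b1, and the 2 genes correlated at -0.023 over 26 values. Elovl3, a fatty acid elongase 14 genes from Cyp17a1, was lower in females than in males (-2.38, adjusted p = 1.01e-06, limma) and in the same direction with the run as a term (adjusted p = 0.00104, limma). Near Akr1c14, Akr1c12 and Akr1e1 correlated with it at 0.82 and 0.79 over 26 values, and at 0.46 and 0.71 over the 13 males. Pfkp, in the same stretch, correlated with it at -0.41. The 5 named neighbours of Hsd11b1 correlated with it at -0.29 to 0.12 and the 9 of Cyp17a1 at -0.44 to 0.28.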
